A study of Danio rerio with 9 samples.

Results

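Matrix metalloproteinases (MMPs) and their tissue inhibitors (Timps) were examined in zebrafish Müller glia (MG), the radial glia of the retina that reprogram after injury and regenerate neurons. The 9 genes taken were mmp2, mmp9, mmp13a, mmp14a, mmp14b, mmp15b, timp2a, timp2b and timp3, chosen by name as members of this protease and inhibitor family. Of these names 8 were found, and they led to 9 gene IDs of the 23707 in the count table. timp3 is not analysed here. The names table gives mmp2, mmp9 and mmp13a in full, but the mmp14, mmp15 and timp2 genes only without their final letter, with a pair of IDs under each symbol. Which ID is the a copy and which the b copy was therefore not assigned, and only 1 ID of the mmp15 pair can be mmp15b. They are called here, in ID order, mmp14 gene 1 (ENSDARG00000002235) and gene 2 (ENSDARG00000008388), mmp15 gene 1 (ENSDARG00000013072) and gene 2 (ENSDARG00000051962), and timp2 gene 1 (ENSDARG00000061226) and gene 2 (ENSDARG00000075261).

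The study asked which genes of MG respond to retinal injury and which of those responses depend on Mych, a Myc family transcription factor. polyA RNA was sequenced from GFP+ cells sorted by FACS in 3 groups of 3 libraries: mych-/- fish at 2 days post injury (dpi), Wt fish at 2 dpi, and uninjured Wt fish. Injury was by needle poke. All groups carried the gfap:GFP transgene, in which the gfap promoter drives GFP in MG and in the progenitors derived from them, and came from adult fish of both sexes whose retinas were pooled. The mych-/- line carries a germline CRISPR indel that shifts the reading frame. No group of uninjured mych-/- fish was analysed here, so a difference between genotypes at 2 dpi and one present before injury cannot be told apart. The labels number the libraries but do not tie them to separate animals or sorts, so p-values measure only the spread between these libraries.

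MMPs are zinc-dependent endopeptidases that cleave collagens, other matrix proteins and many cell surface and signalling proteins. Most are made as inactive zymogens, and they are either secreted or anchored in the plasma membrane. Timps are small secreted proteins that occupy the active site of MMPs. Timp2 has a further role in mammals, where it bridges membrane-bound Mmp14 and the Mmp2 zymogen so that a neighbouring Mmp14 molecule can activate Mmp2. In the zebrafish retina mmp9 is known as a gene that MG express after injury.

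Library totals ran from 46835977 to 77133615 counts. Levels are given as CPM, counts relative to the TMM-scaled size of the library, and since they are not divided by transcript length they are compared between libraries and not between genes. The mych transcript was at 145, 197 and 158 CPM in mych-/- 2 dpi MG, at 180, 233 and 319 CPM in Wt 2 dpi MG, and at 19.95, 11.0 and 25.9 CPM in Wt uninjured MG. A frameshift need not remove the transcript, so this level is no check of the genotype labels. MG markers, 8 gene IDs that include gfap and rlbp1a, summed to 12916 to 35199 CPM in mych-/- 2 dpi, 14635 to 22971 CPM in Wt 2 dpi and 10336 to 17201 CPM in Wt uninjured libraries. apoeb was the largest part at 2 dpi, with 7849 to 21686 CPM in mych-/- and 7934 to 15807 CPM in Wt libraries. In Wt uninjured libraries it was at 1979 to 4164 CPM. With injury 3 of the 8 were called higher, apoeb among them, and 1 lower, so the higher sums at 2 dpi mainly follow apoeb. Rod markers were also present and summed to 1233 to 2750 CPM in mych-/- 2 dpi, 1016 to 3137 CPM in Wt 2 dpi and 13558 to 26945 CPM in Wt uninjured libraries, so rod transcripts were a larger part of the uninjured libraries. Cone markers summed to 9134 to 10629 CPM in mych-/- 2 dpi, 5447 to 11419 CPM in Wt 2 dpi and 22077 to 38382 CPM in Wt uninjured libraries. In Wt 2 dpi against Wt uninjured MG 7 of 10 rod, 6 of 6 cone, 7 of 7 bipolar, 5 of 6 amacrine, 5 of 6 ganglion and 2 of 3 horizontal cell markers were called lower and 0 higher, and their part in the injury values was not tested. Of all genes tested 19.8% were called lower and 22.3% higher. In such bulk samples fewer cells of a type and less RNA per cell cannot be told apart.

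Of the 9 gene IDs, all of which passed the filter on low counts, 7 were called higher in Wt MG at 2 dpi than without injury and 0 lower. A call required an adjusted p of at most 0.05 in edgeR's quasi-likelihood test over 20484 genes and an absolute log2 fold change above 0.5. By the same rule 42.1% of all genes tested were called in either direction and 22.3% were called higher. The members had a median log2 fold change of 1.50, against -0.02 over all genes. Those called were the gelatinases mmp2 and mmp9, mmp14 gene 2, both mmp15 genes and both timp2 genes. The count was 4 when Wt 2 dpi replicate 2 or Wt uninjured replicate 2 was left out, and 5 without Wt uninjured replicate 1.

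**Figure D1:**
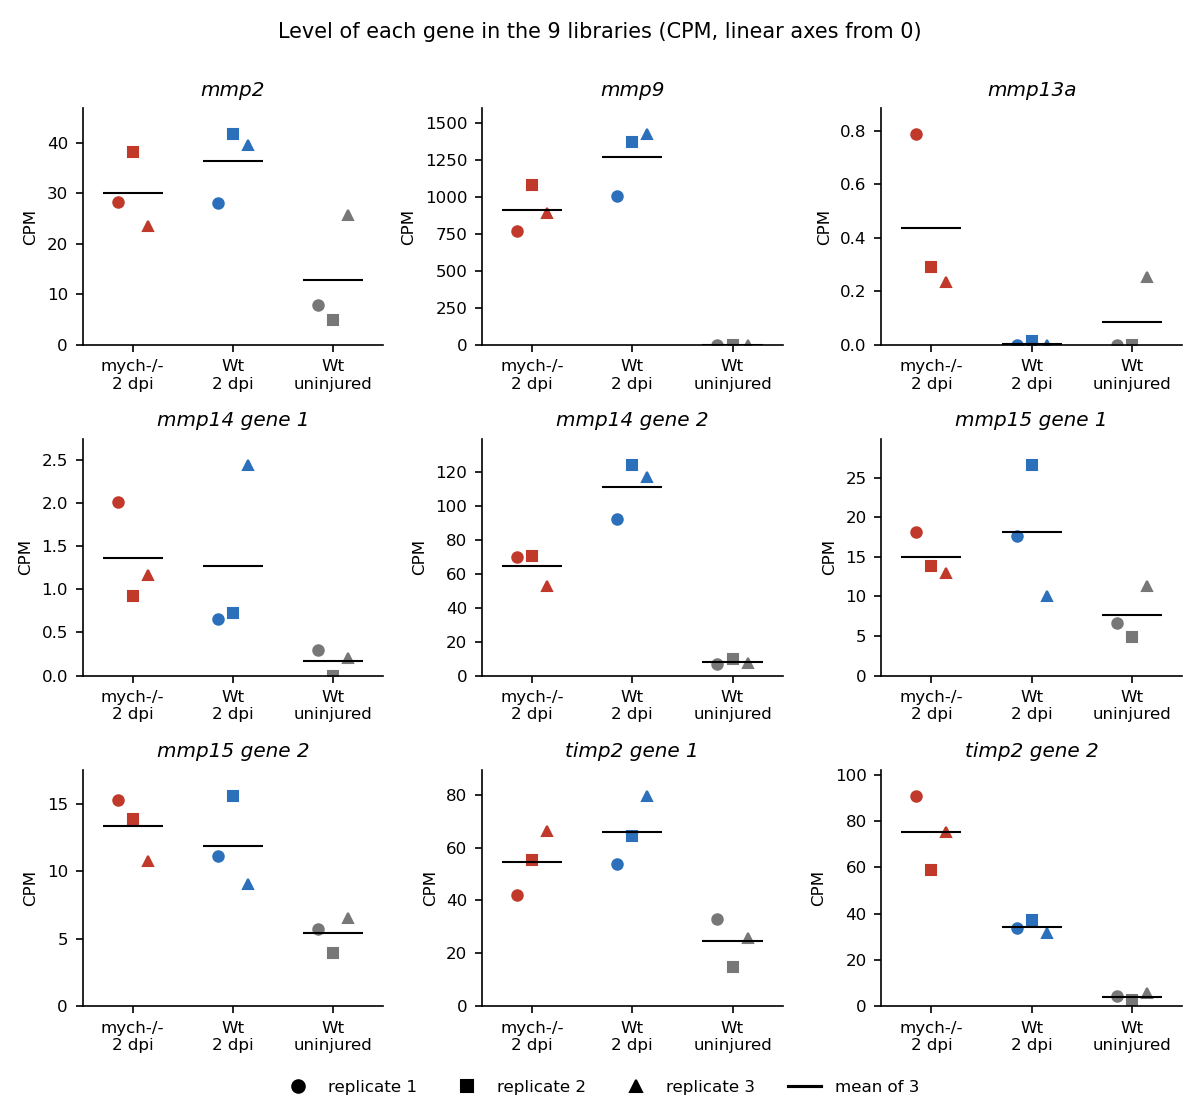
Level of each of the 9 gene IDs in CPM (linear axes from 0) in mych-/- 2 dpi, Wt 2 dpi and Wt uninjured MG, with 1 symbol per library and a line at the mean of 3. mmp9 lies between 769 and 1423 CPM in every 2 dpi library and at or under 1.31 CPM in every uninjured one, and timp2 gene 2 forms 3 separate levels.

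The gelatinases, which degrade denatured collagen and basement membrane collagen, differed widely in the size of their response. mmp9 was at 769, 1080 and 889 CPM in mych-/- 2 dpi MG, at 1010, 1373 and 1423 CPM in Wt 2 dpi MG, and at 0.794, 0.214 and 1.31 CPM in Wt uninjured MG. The uninjured values rest on 43, 9 and 82 counts, and each 2 dpi library held at least 45964. Every injured library thus stood far above every uninjured one. The rise in Wt MG was 10.64 on the log2 scale (SE 0.58, adjusted p = 3.71e-07), a fold of 1592 that ranked 62 among the rises of all genes tested. mych-/- 2 dpi MG stood 10.16 above uninjured Wt MG on the same scale (SE 0.57, adjusted p = 8.88e-07), a comparison in which genotype and injury both differ. Without Wt uninjured replicate 3, the library with 82 counts, the fold was 2416 for Wt 2 dpi and 1755 for mych-/- 2 dpi MG.

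Between the genotypes mmp9 was not called. Its mean was 913 ± 157 CPM in mych-/- 2 dpi and 1269 ± 225 CPM in Wt 2 dpi MG (SD, n = 3 each), and the highest mych-/- library lay above the lowest Wt library. The log2 difference was -0.47 with a 95% interval of -1.31 to 0.36 (adjusted p = 0.546). The interval reaches well below 0, so the data do not show that the genotypes express mmp9 alike.

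mmp2, the other gelatinase, was at 28.3, 38.1 and 23.6 CPM in mych-/- 2 dpi MG, at 28.0, 41.6 and 39.5 CPM in Wt 2 dpi MG, and at 7.86, 4.90 and 25.7 CPM in Wt uninjured MG. Wt uninjured replicate 3 stood apart from its group and was above the lowest mych-/- 2 dpi library. The Wt groups did not overlap, and the log2 fold change with injury was 1.50 (SE 0.49, adjusted p = 0.0291). This call was lost without Wt 2 dpi replicate 2 (adjusted p = 0.0816) or 3 (0.0771) and without Wt uninjured replicate 1 (0.0942) or 2 (0.0637). With no filter on low counts it was narrowly lost as well (0.0503). The log2 fold change was 2.50 without Wt uninjured replicate 3. The genotypes had a log2 difference of -0.28 (95% interval -1.34 to 0.78, adjusted p = 0.829). Pericyte and fibroblast markers, cells that are a known source of mmp2, summed to 429 to 776 CPM in Wt 2 dpi and 278 to 407 CPM in Wt uninjured libraries, with Wt uninjured replicate 3 the highest of its group at 407 CPM. Most of the uninjured sums came from pdgfrb, at 161 to 231 CPM, and notch3, at 110 to 169 CPM. In these libraries dcn was at 3.56 to 4.40 CPM and col1a1a at 0.166 to 1.72 CPM, so the sums say little of them. Of these 6 marker genes 4 were called higher with injury, dcn, col1a1a, col1a2 and notch3. pdgfrb (log2 fold change 0.55) and lum (-1.18) were not called, and none of the 6 was at 0 in every library of a group. Their part in the mmp2 result was not tested.

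mmp13a, a secreted collagenase that cleaves fibrillar collagen, was barely detected. It had 47, 22 and 15 counts in mych-/- 2 dpi libraries, 0, 1 and 0 counts in Wt 2 dpi libraries, and 0, 0 and 16 counts in Wt uninjured libraries. It passed the filter on low counts only through the mych-/- 2 dpi libraries, the group in which it was highest. That the genotypes did not overlap is therefore no separate support for a difference. A floor of 3 counts in each Wt 2 dpi library would put mych-/- MG at least 9.95-fold higher, or 5.99-fold without mych-/- 2 dpi replicate 1. This bound has the same limit and covers counting error only. Wt uninjured replicate 3, at 0.255 CPM, was above the lowest mych-/- 2 dpi library, at 0.236 CPM. The test did not call it between genotypes (adjusted p = 0.272) or with injury (adjusted p = 0.273). A single library, Wt uninjured replicate 3, held all 16 uninjured counts, and without it the fitted change with injury turned from -3.77 to 1.70. Over all genes and libraries the table held the value 1 only 868 times and the value 20 as often as 662 times, so a single count was about as rare as a count of 20.

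The membrane-anchored MMPs are the mmp14 and mmp15 genes. Their products sit at the cell surface, where they cleave matrix nearby and, for Mmp14 in mammals, activate secreted MMPs. mmp14 gene 2 was at 69.8, 70.3 and 53.0 CPM in mych-/- 2 dpi MG, at 92.4, 124 and 117 CPM in Wt 2 dpi MG, and at 6.68, 9.52 and 7.48 CPM in Wt uninjured MG. The 3 groups formed 3 levels with no overlap between any of them. Its log2 rise with injury was 3.82 in Wt MG (SE 0.23, adjusted p = 5.19e-07, 14.1-fold), and its SE was the smallest of the 9 gene IDs. mych-/- 2 dpi MG stood 3.03 above uninjured Wt MG on the same scale (SE 0.22, adjusted p = 3.36e-06).

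mmp14 gene 1 gave few counts, 120, 70 and 74 in mych-/- 2 dpi, 42, 57 and 156 in Wt 2 dpi, and 16, 0 and 13 in Wt uninjured libraries. As CPM this was 0.924 to 2.01 in mych-/- 2 dpi, 0.657 to 2.44 in Wt 2 dpi and 0 to 0.295 in Wt uninjured MG. The injured and uninjured libraries did not overlap. With 0 counts in Wt uninjured replicate 2, the gene passed the filter on low counts only through the 2 dpi libraries, in which it was higher. The lack of overlap is therefore no separate support for a rise. edgeR did not call the Wt difference of 2.90 on the log2 scale (SE 1.41, adjusted p = 0.119). DESeq2's Wald test did call it, with a log2 fold change of 2.91 (adjusted p = 0.0221). Between genotypes the difference was 0.10 with a 95% interval of -2.74 to 2.94, so that nothing can be said of its direction.

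The mmp15 genes had smaller fitted fold changes than mmp14 gene 2. mmp15 gene 2 was at 15.3, 13.9 and 10.8 CPM in mych-/- 2 dpi MG, at 11.1, 15.6 and 9.04 CPM in Wt 2 dpi MG, and at 5.72, 3.93 and 6.54 CPM in Wt uninjured MG. All injured libraries were above all uninjured ones. Its log2 rise with injury was 1.14 in Wt MG (SE 0.32, adjusted p = 0.0120), and mych-/- 2 dpi MG stood 1.3 above uninjured Wt MG on the same scale (SE 0.32, adjusted p = 0.0101). The Wt call was lost without Wt 2 dpi replicate 2 (adjusted p = 0.0617) or Wt uninjured replicate 2 (0.0524).

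mmp15 gene 1 was at 18.1, 13.8 and 13.0 CPM in mych-/- 2 dpi MG, at 17.7, 26.6 and 10.01 CPM in Wt 2 dpi MG, and at 6.64, 4.90 and 11.3 CPM in Wt uninjured MG. Here the Wt groups overlapped, since Wt 2 dpi replicate 3 was below Wt uninjured replicate 3. It was called with injury all the same, at 1.25 on the log2 scale (SE 0.39, adjusted p = 0.0228). The call was lost with the replicate number as a block (adjusted p = 0.0512), without Wt 2 dpi replicate 2 (0.120) and without Wt uninjured replicate 1 (0.0655) or 2 (0.0793). mych-/- 2 dpi against Wt uninjured MG gave 0.97 (SE 0.39, adjusted p = 0.0910), and this passed the threshold without Wt uninjured replicate 3 (1.38, adjusted p = 0.0343).

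The inhibitors were both called with injury. timp2 gene 1 was at 42.1, 55.4 and 66.2 CPM in mych-/- 2 dpi MG, at 53.8, 64.2 and 79.6 CPM in Wt 2 dpi MG, and at 32.9, 14.8 and 25.9 CPM in Wt uninjured MG. Injured libraries of both genotypes were above all uninjured libraries, and the genotypes overlapped. The Wt rise was 1.42 on the log2 scale (SE 0.29, adjusted p = 0.00204), and the genotypes differed by -0.27 (95% interval -0.89 to 0.35, adjusted p = 0.675).

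timp2 gene 2 was at 91.0, 59.0 and 75.4 CPM in mych-/- 2 dpi MG, at 34.0, 37.4 and 31.8 CPM in Wt 2 dpi MG, and at 4.24, 2.57 and 5.52 CPM in Wt uninjured MG. The groups fell into 3 separate levels with mych-/- 2 dpi the highest. Its Wt rise was 3.06 on the log2 scale (SE 0.29, adjusted p = 1.01e-05, 8.33-fold). mych-/- 2 dpi MG stood 4.19 above uninjured Wt MG, with genotype and injury both different (SE 0.30, adjusted p = 3.12e-06, 18.2-fold).

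**Figure D2:**
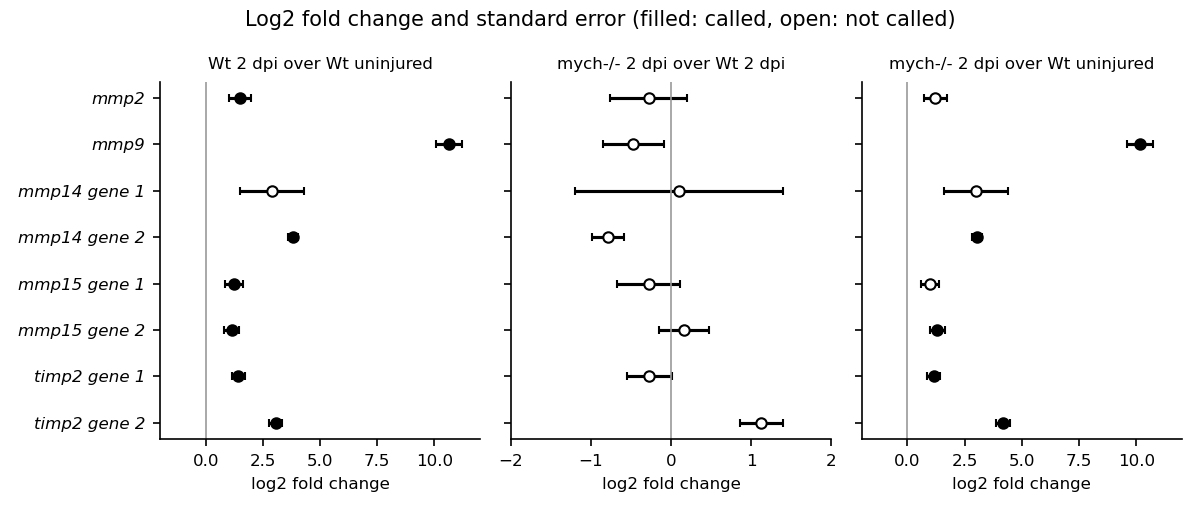
Log2 fold change of 8 gene IDs with its standard error in each of the 3 comparisons, filled where called (mmp13a, at the floor of 3 counts in Wt 2 dpi MG, is left out, and the middle axis is wider per unit). With injury mmp9 stands far to the right at 10.64, and between genotypes every point is open, with timp2 gene 2 at 1.13 and mmp14 gene 2 at -0.79 farthest from 0.

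The loss of Mych was tested at 2 dpi, where mych-/- MG were set against Wt MG. edgeR called 0 of the 9 gene IDs, when 1.69% of all genes tested were called. Of the members 2 had an unadjusted p under 0.05, timp2 gene 2 and mmp14 gene 2, a share close to the 19.4% of all genes under that value. DESeq2's Wald test called both, at a background of 8.46% of all genes. The members' median log2 difference was -0.27, against 0.03 over all genes, with 4 positive and 5 negative values. The injury and genotype comparisons share the Wt 2 dpi libraries, so a gene's values in them are not independent.

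timp2 gene 2 was 2.18-fold its Wt level in mych-/- 2 dpi MG, a log2 difference of 1.13 (SE 0.27, 95% interval 0.55 to 1.71). All 3 mych-/- libraries were above all 3 Wt 2 dpi libraries. Its p of 0.00120 became an adjusted p of 0.0571 in edgeR, just outside the threshold, so the gene was not called. It was called by DESeq2 (adjusted p = 0.00490), with no filter on low counts (0.0392), with only the 6 libraries compared (0.0398), without mych-/- 2 dpi replicate 2 (0.0303) and without Wt uninjured replicate 2 (0.0411). It was not called in any other fit, and the highest adjusted p was 0.262, without mych-/- 2 dpi replicate 1. The log2 difference stayed between 0.97 and 1.28 over the fits that leave out a library.

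mmp14 gene 2 lay on the other side. Its mean was 64.3 ± 9.86 CPM in mych-/- 2 dpi and 111 ± 16.6 CPM in Wt 2 dpi MG (SD, n = 3 each), a log2 difference of -0.79 (SE 0.20, 95% interval -1.23 to -0.34). All 3 mych-/- libraries were below all 3 Wt 2 dpi libraries. The p of 0.00232 became an adjusted p of 0.0710 in edgeR, so this gene was not called either. DESeq2 called it (-0.80, adjusted p = 0.0144), and so did edgeR without Wt 2 dpi replicate 1 (-0.90, adjusted p = 0.0424). Microglia and macrophage markers, 14 gene IDs, summed to 214 to 270 CPM in mych-/- 2 dpi, 244 to 272 CPM in Wt 2 dpi and 110 to 157 CPM in Wt uninjured libraries. aif1l was the largest part, at 158 to 205 CPM in mych-/- 2 dpi, 192 to 214 CPM in Wt 2 dpi and 73.6 to 93.8 CPM in Wt uninjured libraries. The sum thus mainly follows that gene and says little of the other markers. Pericyte and fibroblast markers summed to 564 to 700 CPM in mych-/- 2 dpi against 429 to 776 CPM in Wt 2 dpi libraries. These sums overlapped between genotypes. So did those of the MG, rod, cone, amacrine, neutrophil, pigment epithelium and erythrocyte lists, but those of 4 lists did not. The share of all genes without overlap between genotypes was not counted, so the lack of overlap does not set these 4 lists apart. Bipolar cell markers summed to 434 to 515 CPM in mych-/- 2 dpi against 244 to 335 CPM in Wt 2 dpi libraries, and ganglion cell markers to 274 to 378 CPM in mych-/- 2 dpi against 181 to 253 CPM in Wt 2 dpi libraries. Horizontal cell markers summed to 108 to 121 CPM in mych-/- 2 dpi against 81.3 to 92.8 CPM in Wt 2 dpi libraries, and endothelial markers to 54.7 to 73.7 CPM in mych-/- 2 dpi against 24.5 to 51.5 CPM in Wt 2 dpi libraries. The horizontal sum mainly follows prox1, at 105 to 117 CPM in mych-/- 2 dpi and 80.6 to 89.4 CPM in Wt 2 dpi libraries. In the same order, cabp5a was the largest part of the bipolar sum, at 289 to 341 and 155 to 221 CPM. Of the endothelial sum it was kdrl, at 27.8 to 62.1 and 14.3 to 30.4 CPM. An unadjusted p under 0.05 was found for 5 of 7 bipolar, 5 of 6 ganglion, 1 of 3 horizontal and 3 of 4 endothelial markers. It was also found for 3 of 6 amacrine cell markers, whose sums overlapped between genotypes. Over all genes tested that share was 19.4%. The endothelial markers went both ways, with log2 differences of 1.11 for kdrl, 0.93 for cdh5, -1.59 for tie1 and -0.37 for fli1. Those of the amacrine, ganglion and horizontal cell markers were all positive, and of the bipolar markers only a prkca gene (-0.08) was not. edgeR called 0 of the 78 marker genes tested between genotypes, with 21 at an unadjusted p under 0.05 and 6 called by DESeq2. Over all genes the shares were 1.69%, 19.4% and 8.46% in that order. The part of the markers in the timp2 and mmp14 values was not tested.

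**Figure D3:**
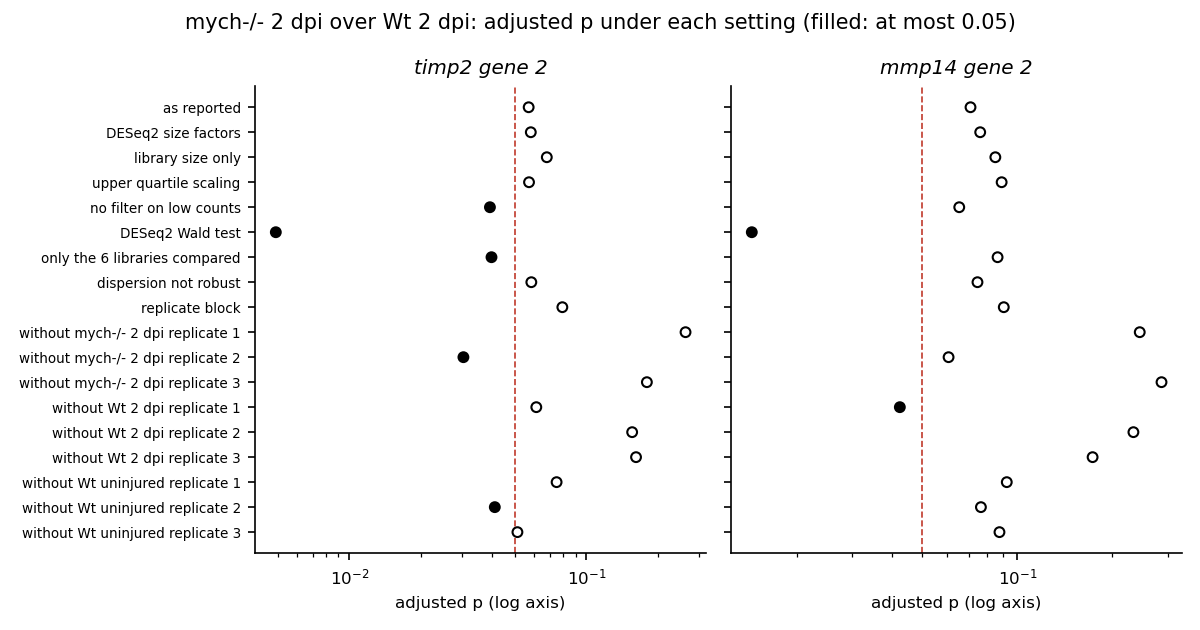
Adjusted p (log axis, dashed line at 0.05) of the difference between mych-/- 2 dpi and Wt 2 dpi MG for timp2 gene 2 and mmp14 gene 2 under each setting tried, filled at or under 0.05. timp2 gene 2 is filled in 5 settings and mmp14 gene 2 in 2, and leaving out mych-/- 2 dpi replicate 1 or 3 moves both well to the right. For mmp14 gene 2, leaving out Wt 2 dpi replicate 2 (0.233) or 3 (0.173) does so too.

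The pairs of genes under 1 symbol were compared by the ratio of their CPM within a library, from which transcript length drops out when groups are compared. The log2 ratio of timp2 gene 1 to gene 2 was -1.11, -0.09 and -0.19 in mych-/- 2 dpi MG, 0.66, 0.78 and 1.32 in Wt 2 dpi MG, and 2.94, 2.52 and 2.22 in Wt uninjured MG. No groups overlapped, and every mych-/- library gave more reads to gene 2 while every Wt library gave more to gene 1, with length not taken into account. The mean ratio was lower by 1.64 in Wt 2 dpi MG than without injury, and lower by 1.38 in mych-/- 2 dpi than in Wt 2 dpi MG. Each difference had an exact two-sided permutation p of 0.1 (adjusted p = 0.200 over 4 tests), which is the smallest that 3 libraries against 3 can give.

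For mmp14 the log2 ratio of gene 1 to gene 2 averaged -5.59 ± 0.56 in mych-/- 2 dpi, -6.66 ± 0.96 in Wt 2 dpi and -5.85 ± 2.08 in Wt uninjured MG (SD, n = 3 each). The groups overlapped. The exact two-sided permutation p was 0.600 for injury and 0.200 for genotype (adjusted p = 0.600 and 0.267), in a design that cannot go below 0.1.

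**Figure D4:**
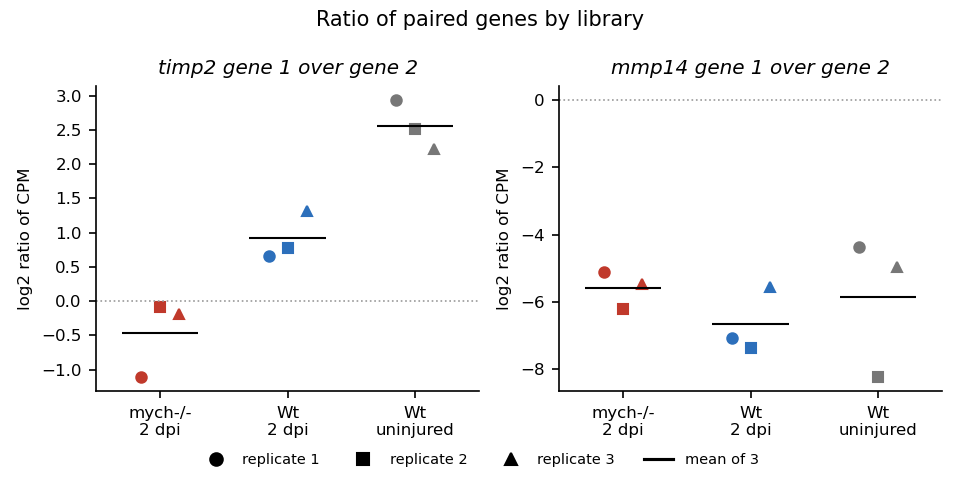
Log2 ratio of CPM of gene 1 to gene 2 for timp2 and mmp14, with 1 symbol per library and a line at the mean of 3. For timp2 the groups descend without overlap toward mych-/- 2 dpi, where all 3 libraries are below 0, and for mmp14 they overlap.

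Replicates varied to different degrees. In Wt 2 dpi MG the coefficient of variation was 8.18% for timp2 gene 2, 15.0% for mmp14 gene 2 and 17.8% for mmp9, against 45.9% for mmp15 gene 1 and 79.3% for mmp14 gene 1. In Wt uninjured MG it was 18.5% for mmp14 gene 2 but 87.9% for mmp2, whose 3 libraries ran from 4.90 to 25.7 CPM.

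Further proteases and inhibitors of the matrix were read from the same fit. As a background to the count of each list, 22.3% of all genes tested were called higher with injury and 19.8% lower. Among other MMPs 1 of 12 genes tested was called higher in Wt MG with injury and 3 were called lower, with a list median of -1.46 on the log2 scale. mmp13b, a second mmp13 collagenase gene, had 14.4, 2.62 and 0.923 CPM in Wt 2 dpi MG and 0, 0.309 and 0 CPM in Wt uninjured MG (log2 fold change 5.93, adjusted p = 0.00988), and this call was lost without Wt 2 dpi replicate 1 (4.12, adjusted p = 0.102). The fitted value was 5.33 without Wt uninjured replicate 3. It was 11.61 without Wt uninjured replicate 2, whose 13 counts are the only uninjured ones, so the size of the rise is not fixed by these data. Pigment epithelium markers, 6 gene IDs, summed to 352, 71.8 and 23.6 CPM in Wt 2 dpi libraries, in the same order as mmp13b and with replicate 1 apart, and to 32.1, 52.0 and 47.1 CPM in Wt uninjured libraries. In mych-/- 2 dpi libraries these sums were 77.8, 23.7 and 28.2 CPM. There mmp13b was at 1.47, 0.713 and 1.62 CPM, which is another order. The part of these markers in the mmp13b value was not tested. mmp16, which encodes a membrane-type MMP, fell to 4.80, 2.48 and 1.95 CPM in Wt 2 dpi MG, against 19.3, 15.5 and 23.4 CPM in Wt uninjured MG (-2.66, adjusted p = 0.000781). Among other inhibitors 1 of 5 genes was called, and higher. This was a timp4 gene (ENSDARG00000102617) with 0.344, 2.40 and 0.516 CPM in Wt 2 dpi MG and 0 counts in each uninjured library, at least 18.7-fold higher against a floor of 3 counts per library (adjusted p = 0.00724). Without Wt 2 dpi replicate 2 the bound was 7.39-fold (adjusted p = 0.0278). This gene passed the filter on low counts only through the 2 dpi libraries, in which it was higher. The bound has that limit and covers counting error only. The other timp4 genes were not called, with log2 fold changes of -0.91 (ENSDARG00000100795, adjusted p = 0.0568) and 1.03 (ENSDARG00000111805, adjusted p = 0.819). Over the members and these 2 lists together, 9 of 26 genes tested were called higher with injury, 3 lower and 14 not called.

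The product of the plasminogen system, plasmin, can activate MMP zymogens. Its list, which here also held serpinb1 genes that are not parts of that system, had 4 of 7 genes called higher with injury and 0 lower. plat, which encodes tissue plasminogen activator, was at 10.2, 12.5 and 11.1 CPM in Wt 2 dpi MG and 0.424, 0 and 0.511 CPM in Wt uninjured MG (log2 fold change 5.12, adjusted p = 0.000211). serpinb1 (ENSDARG00000055416), which encodes a serine protease inhibitor, was at 153, 195 and 181 CPM in Wt 2 dpi MG and 5.63, 10.01 and 14.8 CPM in Wt uninjured MG (4.11, adjusted p = 1.26e-05). Another serpinb1 gene (ENSDARG00000070396), with at most 128 counts in a library, was not called (0.32, adjusted p = 0.908). Of the proprotein convertases, some of which process membrane-type MMPs in the secretory pathway, 2 of 5 genes were called higher and 0 lower. furin (ENSDARG00000070971) was at 107, 106 and 87.3 CPM in Wt 2 dpi MG and 42.6, 49.4 and 45.9 CPM in Wt uninjured MG (1.12, adjusted p = 0.000362), and pcsk5 (ENSDARG00000060518) rose by 1.37 (adjusted p = 0.00475). Another furin gene (ENSDARG00000062909) was not called with injury (-0.13, adjusted p = 0.774).

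The ADAM and ADAMTS families, metalloproteinases that shed cell surface proteins or cleave matrix proteoglycans and procollagens, moved in both directions. Of 16 ADAM genes 4 were called higher with injury and 5 lower. adam8a was at 175, 271 and 237 CPM in Wt 2 dpi MG and 0.960, 0 and 0.910 CPM in Wt uninjured MG (log2 fold change 8.45, adjusted p = 1.05e-05). adam8b was at 103, 130 and 127 CPM in Wt 2 dpi MG and 4.36, 5.57 and 5.36 CPM in Wt uninjured MG (4.56, adjusted p = 9.92e-08). ADAM8 is best known from leukocytes in mammals, and the neutrophil markers lyz, csf3r and npsn summed to 1.65 to 3.27 CPM in Wt 2 dpi and 2.03 to 2.40 CPM in Wt uninjured libraries, with 0 of 3 called by edgeR, 0 at an unadjusted p under 0.05 and 0 called by DESeq2. Microglia and macrophage markers had 4 of 12 genes tested called higher with injury and 1 lower. Their part in the adam8 and mmp9 values was not tested.

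Of 18 ADAMTS genes 2 were called higher and 5 lower. adamts3, whose product in mammals trims procollagen, was at 8.54, 15.8 and 12.1 CPM in Wt 2 dpi MG and 2.79, 2.19 and 2.44 CPM in Wt uninjured MG (log2 fold change 2.29, adjusted p = 0.00181). adamts16 was at 1.22, 0.903 and 0.641 CPM in Wt 2 dpi MG and 8.93, 8.42 and 12.5 CPM in Wt uninjured MG (-3.43, adjusted p = 0.0261). The adamts16 call was lost without Wt 2 dpi replicate 2 (adjusted p = 0.0758) or 3 (0.0885) and without Wt uninjured replicate 1 (0.0536), 2 (0.0519) or 3 (0.0739). Between genotypes edgeR called 0 of the 63 genes tested in these lists, with 12 at an unadjusted p under 0.05 and 4 called by DESeq2. Over all genes the shares were 1.69%, 19.4% and 8.46% in that order, so these counts do not set the lists apart.

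**Figure D5:**
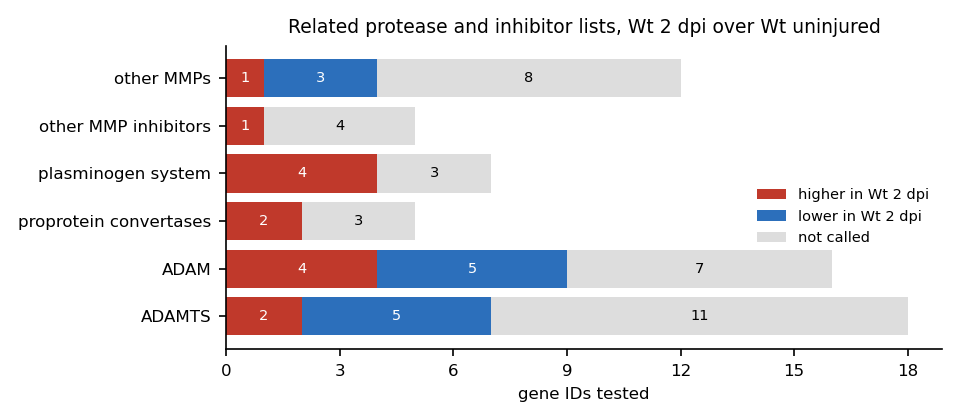
Number of gene IDs tested in 6 related lists that were called higher in injured than in uninjured Wt MG, called lower, or not called. The plasminogen system and the proprotein convertases have called genes in the higher direction and none lower. The other MMP inhibitors have 1 called higher and none lower, and the other MMPs, ADAM and ADAMTS lists hold both.

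The mych-/- injured libraries were also set against the uninjured Wt libraries, a comparison in which genotype and injury both differ. Of the 9 gene IDs 5 were called higher and 0 lower, when 25.8% of all genes tested were called and 16.3% were called higher. They were mmp9, mmp14 gene 2, mmp15 gene 2 and both timp2 genes. mmp2, at 1.22 (SE 0.49, adjusted p = 0.0915), was not called, and like mmp15 gene 1 it passed the threshold without Wt uninjured replicate 3 (2.24, adjusted p = 0.000692), which brought the count to 7.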

How the data were processed

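The authors deposited raw counts per Ensembl gene, whole numbers with 1 column per library and no normalization. Reads were mapped to GRCz11 according to the study's methods. The submitters' processing notes list cutadapt 2.3, FastQC 0.11.8, STAR 2.7.8a, RSEM 1.3.3 and DESeq2, and the builds GRCz11 and GRCh38, with no roles. The gene IDs are those of zebrafish, and the deposited counts may be rounded RSEM estimates. The use of strand is not given in the sources used here, and reads of overlapping genes or of similar copies such as the paired mmp14, mmp15 and timp2 genes may have been split between them.

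Groups and replicate numbers came from the sample labels. The tests were run in edgeR 4.0.16 under R 4.3.3 (TMM, filterByExpr by group, robust quasi-likelihood fit of all 9 libraries with 1 mean per group, F tests, Benjamini-Hochberg adjustment over 20484 genes) and checked on simulated data. The study's thresholds of adjusted p and log2 fold change were used without its further threshold on FPKM. log2 CPM used a prior count of 2. A group in which no library exceeded 3 counts of a gene was taken as at the floor for it. Ratios of paired genes were tested by exact permutation. Alternatives were DESeq2 1.42.0, other scalings, no filter, other fold thresholds, fits of 6 libraries, a replicate block, a dispersion that is not robust, a prior count of 0.5, and leaving out each library.

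Symbols came from a names table that matched 22147 of 23707 IDs (93.4%). Marker and protease lists were matched by symbol, or without a final a or b, and mpeg1.1 and mpx were not matched. Named genes were all members, at most 2 called genes of each related list with the largest absolute change, and the 5 genes most like mmp9 and each timp2 gene. The members, lists and rules were chosen with earlier results of these data known. Motifs in promoters and proteins were planned but not run, since no sequences were used here.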

Additional observations from a re-analysis of the deposited data

How the results depend on the processing

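Called members numbered 7 for injury and 4 to 7 when a library was left out, with 6 under no filter or the replicate block and 8 under DESeq2. For genotype the number was 0, and it was 1 with no filter, 1 with only the 6 libraries compared, 2 under DESeq2, and 0 to 1 when a library was left out. mych-/- 2 dpi against Wt uninjured MG gave 5, 6 under DESeq2, and 5 to 7 when a library was left out. Of the members' alternative fold changes 430 kept their direction and their side of the threshold, 11 passed it, 11 lost it and 6 turned. Those that turned were not called: over the fits without a library mmp13a with injury ran from -5.42 to 1.70, and between genotypes mmp14 gene 1 ran from -0.28 to 0.98, mmp15 gene 1 from -0.57 to 0.11 and mmp15 gene 2 from -0.00027 to 0.40. The cause was not tested. Over all genes the 347 called between genotypes were 214 by library size only, 221 by upper quartile scaling, 1785 by DESeq2, 219 with 6 libraries, 111 with the replicate block and 8 to 1026 without a library, so an adjusted p near the threshold depends on which libraries and tool are used. With library size alone as the scale, the median over all genes between genotypes was 0.112, and no member turned. Same-numbered libraries deviated with r of -0.075 to 0.090 over 9 pairs, so no pairing by number was seen. A low r cannot show that such libraries came from separate sorts, and the labels do not say. The replicate block changed no member's call except that of mmp15 gene 1 with injury. The difference in mmp14 ratio with injury was -0.81, and -0.10 with a prior count of 0.5. Depth itself was not varied, and the values of mmp13a and mmp14 gene 1 rest on at most 47 and 156 counts in a library.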

Other observations

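Over the 9 libraries the genes with at least 10 CPM on average whose log2 CPM was most like that of mmp9 were si:rp71-1c10.7 (Pearson r 0.999), c7b, a terminal complement component (0.998), niban2 (0.998), arhgap42 (0.997) and mvp, the major vault protein (0.997). The libraries share 3 groups, and 1568 of the 10314 genes searched had an r over 0.9, so a high r was common. Ranked by Spearman's rho instead, 1 of these 5 stayed among the first 5.

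For timp2 gene 1 the most alike were marcksl1b (r 0.975), nop14 (0.972), prkci (0.972), psmf1 (0.972) and gle1 (0.970), of which 3 stayed under Spearman's rho. For timp2 gene 2 they were tnfrsf11b, which encodes a decoy receptor of the TNF receptor family (0.989), fthl27 (0.984), cpne8 (0.983), esm1 (0.982) and stat3, a transcription factor activated by cytokines (0.982), of which 0 stayed. An r over 0.9 was found for 479 of the 10314 genes with timp2 gene 1 and for 486 with timp2 gene 2, so these lists of 5 say little.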
